A study of Mus musculus with 9 samples.

Results

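The genes described here are 8 genes of nephronophthisis and of the ciliary transition zone, namely Nphp4, Invs, Glis2, Iqcb1, Cep290, Tmem67, Nek8 and Anks6. They were chosen by name from what they are known to encode, with earlier results of these data known. All 8 were among the 22161 gene rows of the expression table, and all 8 passed the filter on low values that left 15740 genes to be tested. Whole kidneys of C57BL/6 mice were compared by poly(A) RNA sequencing at postnatal day 70, with 3 mice in each of 3 genotypes. The double knockout was Ift88fl/fl;Pkd2fl/fl;Pax8rtTA;TetO-cre, the Pkd2 knockout was Pkd2fl/fl;Pax8rtTA;TetO-cre, and the third group was labelled wild type. Every mouse, the wild types included, drank doxycycline at 2 mg/ml for 2 weeks starting at postnatal day 28. Pax8 drives the doxycycline-controlled activator in renal tubule cells, which then express Cre, so the other cells of these whole kidneys keep the floxed alleles intact. Pkd2 encodes polycystin-2, a channel of the primary cilium, and Ift88 encodes an intraflagellar transport protein without which cilia are not built.

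Nephronophthisis is a recessive human kidney disease with scarring and cysts, and the proteins whose loss causes it mostly sit in the primary cilium or at its base. The transition zone is the gate at the base of the cilium, where Y-shaped links tie the microtubules to the membrane and where nephrocystin and Meckel syndrome (MKS) protein complexes control which proteins enter. Further along the shaft lies the inversin compartment, where inversin holds the kinase NEK8 and its partner ANKS6. GLIS2 differs from the rest in being a zinc finger transcription factor. Mice without Glis2 develop kidney atrophy and fibrosis.

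Ciliary genes are often controlled by RFX transcription factors, whose binding site is the X-box. RefSeq promoters on GRCm38.p6, from 250 bases before to 50 bases after a gene's start, were searched on both strands for a whole X-box, GTNNCC followed after 0 to 3 bases by NGNAAC, and for the single arm GTTGCC, which overlaps the whole box. Promoter entries were found for 5 of the 8 genes, namely Nphp4, Invs, Iqcb1, Cep290 and Nek8. Of these, Nphp4 alone held a whole X-box, with a separate GTTGCC, in 1 of its 3 promoter entries. Of 32 further pathway genes with an entry, 12 held a whole X-box, and 9 of those were among the 13 MKS module genes. A whole X-box was found in 1726 of the 32851 promoters searched, or 5.25%, a search that left out 1 chromosome. It was found in 12 of the 40 promoters of the pathway genes, or 30.0%, and in 1 of the 7 promoters of the 8 genes, or 14.3%. The arm GTTGCC was found in 12.5% of the 32851 promoters, in 12 of the 40, or 30.0%, and in 1 of the 7, or 14.3%. The whole X-box of that Nphp4 entry is shown with those of all 9 MKS module genes that hold one. In Tmem237, Tctn2, Tmem231 and Tmem216 the box fits the pattern only on the strand opposite to the gene. Their printed letters are therefore the reverse complement of the match, and the others fit as printed. All boxes are written 5′ to 3′ on the strand of the gene, with the whole X-box in capitals and 7 bases on either side. The exception is Tctn1, where the searched window ends with the box.
Nphp4, chr4:152477904-152477931, plus strand, upstream of the start: ggtgcccGTCTCCTAGGTAACgcgccag
Tmem237, chr1:59120103-59120130, minus strand, upstream of the start: agtcagcGTTGCCATGGCGACgcctccg
Tctn2, chr5:124598680-124598707, plus strand, upstream of the start: attggagGTTACCATGGCTACtggtcct
Tctn3, chr19:40612352-40612378, minus strand, upstream of the start: cccagcgGTTGCCAGGTAACgggaacc
Mks1, chr11:87853184-87853211, plus strand, upstream of the start: cgtctccGTTGCCAGGGGAACgaggcac
B9d2, chr7:25680789-25680816, plus strand, after the start: acctgctGTTGCCCCAGCAACagtcggg
Ahi1, chr10:20952561-20952588, plus strand, after the start: agtctgaGTTACCTAGGCAACagcggca
Tmem231, chr8:111933782-111933809, minus strand, after the start: gccgtcgGTTGCCGTGGAGACtcggcgc
Tmem216, chr19:10555724-10555751, minus strand, after the start: gtacgcaGTTTCCATGGGGACtgaacat
Tctn1, chr5:122264411-122264431, minus strand, after the start: tgtgactGTTGCCCGGGCAAC
In 9 of the 10 the box is 14 bases long, and in Tctn3 it is 13. A match to these letters is a description of the sequence and shows neither binding nor control. Nphp4 and the 12 pathway genes with a whole X-box had log2 fold changes of both signs. Between Pkd2-knockout and wild-type kidneys 5 of the 13 were above 0 and 8 below, where 49.2% of all tested genes were below. They ran from -0.54 for B9d2 to 0.18 for Tmem237, with a median of -0.03. In double-knockout kidneys 5 were above 0 and 8 below against wild type, and 8 above and 5 below against the Pkd2 knockout. With limma 0 of the 13 were called in any of the 3 comparisons. Over all tested genes 2.40% were called in Pkd2-knockout against wild-type kidneys, and 0.229% and 0.394% in double-knockout kidneys against wild type and Pkd2 knockout. At such shares, 0 of 13 is not a result about these genes.

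The genotype labels were checked first. Pkd2 had 5181, 3777 and 5102 normalized counts in double-knockout kidneys, 4723, 5083 and 5549 in Pkd2-knockout kidneys, and 13768, 14013 and 14505 in wild-type kidneys. That is 33.3% of the wild-type level in the double knockout and 36.3% in the Pkd2 knockout, and the adjusted p was 0.000843 and 0.000972 (limma). Ift88 had 735, 691 and 831 normalized counts in double-knockout kidneys, against 1121, 1086 and 1214 in Pkd2-knockout kidneys and 1132, 1067 and 1056 in wild-type kidneys. It was called lower than in the Pkd2 knockout (log2 fold change -0.60 ± 0.09 SE, adjusted p = 0.0358, limma) and missed the threshold against wild type (-0.53 ± 0.09 SE, adjusted p = 0.0617, limma). Both genes were counted over all their exons, so the values mix deleted and intact parts. A gene is called here where the adjusted p of a limma fit over all 9 libraries is below 0.05, with the adjustment made over all 15740 genes.

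The 9 libraries held between 37056843 and 47314829 reads, recovered from the deposited values. Mitochondrial transcripts made up 9.21% to 10.8% of each. Every listed marker of proximal tubule, thick ascending limb, distal tubule, collecting duct, podocytes and endothelium was above 0 in every library. Wild-type mouse 3 and Pkd2-knockout mouse 3 carry another name prefix than their group mates, and both libraries had low quality weights (0.319 and 0.364, where values below 1 mean a library farther from its group). Double-knockout mice 3 and 1 were also below 1, at 0.52 and 0.94. The summed fibroblast markers ran from 4251 to 5418 normalized counts in double-knockout kidneys, from 7543 to 11304 in Pkd2-knockout kidneys and from 4871 to 7492 in wild-type kidneys, and the summed thick ascending limb markers from 155585 to 202954, from 117259 to 154014 and from 250225 to 262536 in the same order of genotypes. Of the 5 fibroblast markers, 0 were called in Pkd2-knockout against wild-type kidneys. In double-knockout against Pkd2-knockout kidneys 1 of them was called lower. All 6 dividing-cell markers were called higher in Pkd2-knockout than in wild-type kidneys, and 5 of 6 were called lower in double-knockout than in Pkd2-knockout kidneys. Their sum ran from 458 to 966 normalized counts in double-knockout kidneys, from 2211 to 2661 in Pkd2-knockout kidneys and from 371 to 470.0 in wild-type kidneys. In whole kidneys, fewer cells of a type and less RNA per cell cannot be told apart.

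Divided by exon length, Glis2 was the most abundant of the 8 genes and Nphp4 the least. Glis2 averaged 2304 normalized counts per kilobase of exon over the 9 mice. Anks6 averaged 145 per kilobase, Nek8 137 and Invs 123, and the ranges of these 3 genes over the 9 mice overlapped. Cep290 followed at 70.4 per kilobase, Iqcb1 at 53.5 and Tmem67 at 46.3. The range of Cep290 (59.3 to 76.3 per kilobase) overlapped slightly with that of Iqcb1 (47.1 to 60.9), and that of Iqcb1 with that of Tmem67 (39.9 to 51.5). Nphp4 averaged 16.3 per kilobase, with a highest value of 21.4. Exon length here counts every annotated exon of a gene, whether or not it is used in kidney. By this measure the 3 partners of the inversin compartment lay close together in level, and above each of the 4 transition zone genes in every mouse.

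**Figure D1:**
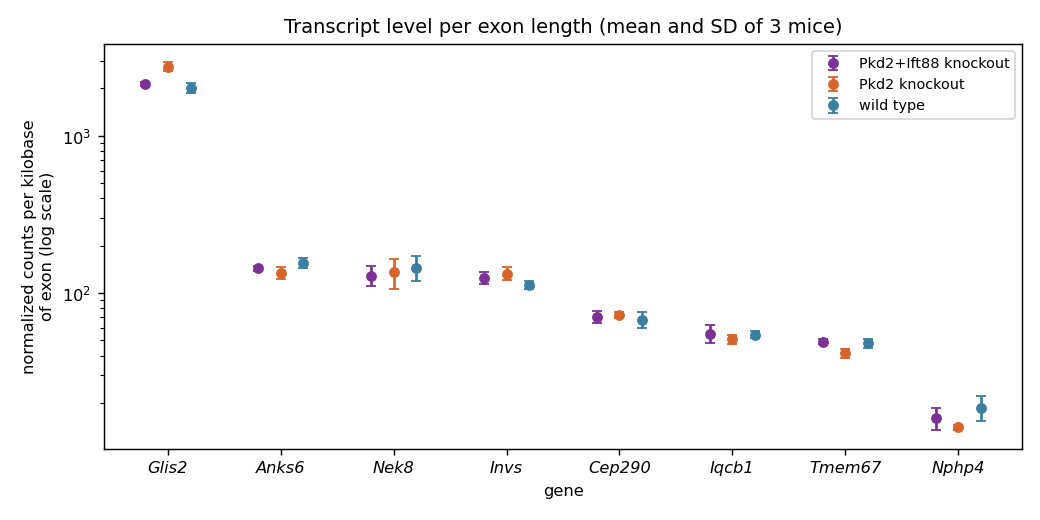
Normalized counts per kilobase of exon (log axis) for the 8 genes, in order of level, as mean and SD of 3 mice for double-knockout, Pkd2-knockout and wild-type kidneys. Glis2 stands at 2304 per kilobase over all mice and Nphp4 at 16.3, and the order of the genes is nearly the same in each genotype.

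Of the 8 genes, Glis2 alone was called in any of the 3 comparisons. It was higher in Pkd2-knockout than in wild-type kidneys, and it was close to the wild-type level in double-knockout kidneys. The other 7 genes were not called in any comparison. In Pkd2-knockout against wild-type kidneys 1 of 8 was called, where 2.40% of all tested genes were. In double-knockout against wild-type kidneys 0 of 8 were called, where 0.229% of all tested genes were, and in double-knockout against Pkd2-knockout kidneys 0 of 8, where 0.394% were. edgeR's quasi-likelihood test and DESeq2, run on whole reads, also called 1, with the same gene, in the first comparison and 0 in the second. In the third edgeR called 0 and DESeq2 called 1, which was Glis2. At an unadjusted p below 0.05 (limma), 3 of 8 genes passed in the first comparison, where 18.0% of all tested genes did. None passed in the second, where 11.7% did, and 2 of 8 passed in the third, where 10.7% did.

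**Figure D2:**
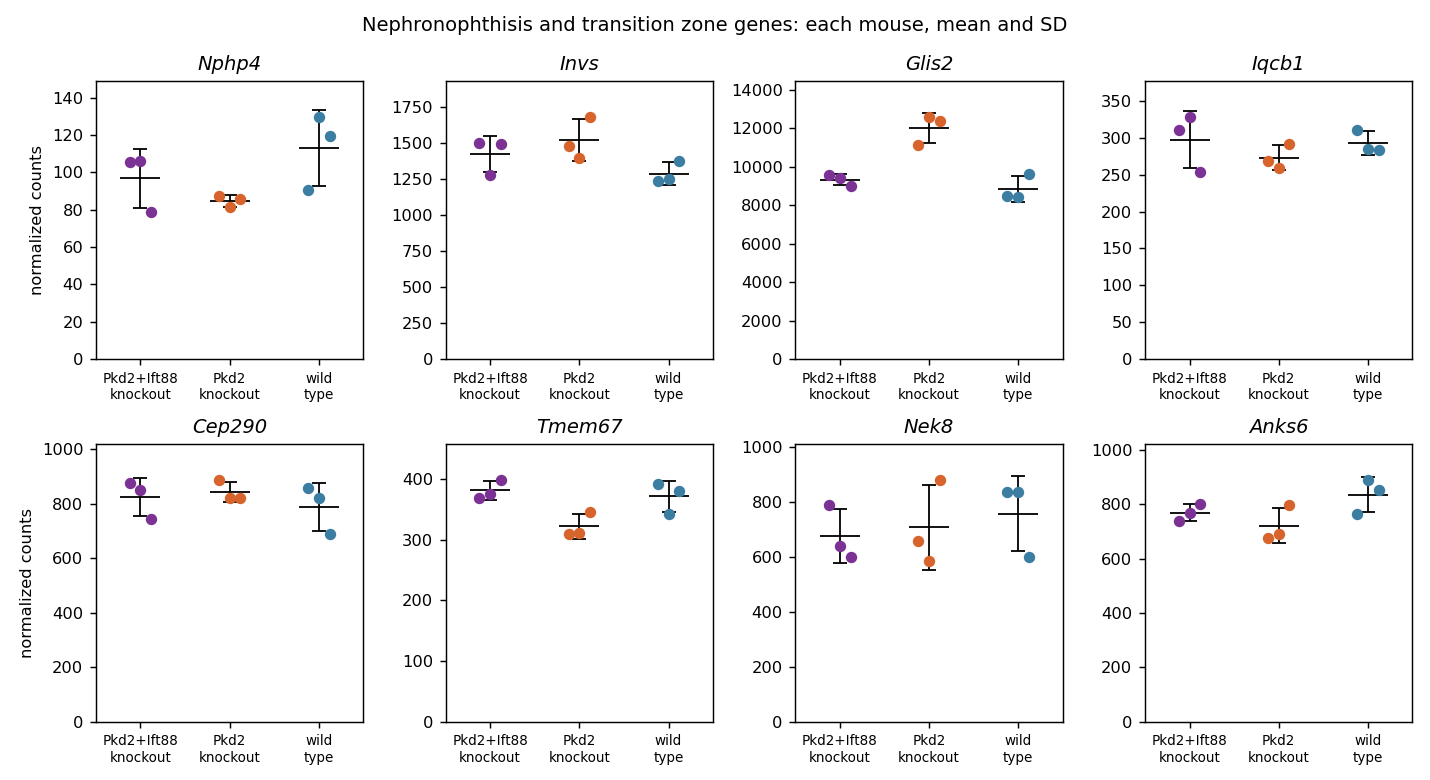
Normalized counts of each of the 8 genes in each mouse (points), with the mean and SD of 3 mice (bars), for double-knockout, Pkd2-knockout and wild-type kidneys from left to right. Every axis starts at 0. The 3 Pkd2-knockout values of Glis2 lie above all 6 others, and the values of Nek8 spread widely within every genotype.

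Glis2 encodes a zinc finger factor of the GLI-similar family that is mutated in human nephronophthisis. It had 9579, 9434 and 8994 normalized counts in double-knockout kidneys, 11148, 12574 and 12395 in Pkd2-knockout kidneys, and 8469.6, 8416 and 9649.9 in wild-type kidneys. All 3 Pkd2-knockout mice were above every double-knockout and every wild-type mouse, and the double-knockout and wild-type mice overlapped. Pkd2-knockout kidneys stood at 136% of the wild-type level (95% interval 121% to 154%), with a log2 fold change of 0.45 ± 0.08 SE and an adjusted p of 0.0252 (limma). The same difference gave an adjusted p of 0.0268 with edgeR and of 1.63e-05 with DESeq2. Double-knockout kidneys stood at 106% of the wild-type level (95% interval 93.7% to 119%, adjusted p = 0.739, limma).

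The direct comparison of Glis2 between double-knockout and Pkd2-knockout kidneys gave 77.5% (95% interval 68.8% to 87.6%). The log2 fold change was -0.37 ± 0.08 SE, with an unadjusted p of 0.000997 and an adjusted p of 0.0959 (limma), so it missed the threshold. edgeR gave an adjusted p of 0.0876 and DESeq2 one of 0.00135. Glis2 was read from 7469 to 13456 reads a library, where counting error alone is 0.992% (SD), below the 3.27% (coefficient of variation, CV) between double-knockout mice, the 6.45% between Pkd2-knockout mice and the 7.88% between wild-type mice.

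The Glis2 call against wild type did not rest on the 2 libraries with another name prefix, since without both the log2 fold change was 0.49 and the adjusted p 0.0324. It was lost without the second Pkd2-knockout mouse (adjusted p = 0.0985), without the first wild-type mouse (0.103) and without the second wild-type mouse (0.104), all with limma and with log2 fold changes of 0.41 to 0.42. In the annotation of GENCODE M21, 455 bases of Glis2 exon, 10.4% of its exon length, overlap Pam16 on the other strand, and the strand setting of the counting is not given in the sources used here. Pam16 itself averaged 589 ± 38.8 normalized counts in double-knockout kidneys, 587 ± 26.7 in Pkd2-knockout kidneys and 618 ± 99.7 in wild-type kidneys (SD, n = 3 each). The sums of the dividing-cell and fibroblast markers given above were also highest in Pkd2-knockout kidneys, with none of the 5 fibroblast markers called against wild type. So were the summed macrophage markers (4 of 5 in the table), at 4007 to 4272 normalized counts in double-knockout kidneys, 4461 to 5236 in Pkd2-knockout kidneys and 3741 to 4232 in wild-type kidneys, with none of the 4 called. The thick ascending limb markers were lowest in Pkd2-knockout kidneys, with 2 of 3 called lower than in wild type, and so were the intercalated cell markers, at 5440 to 7208, 4219 to 4449 and 5956 to 6120 in the same order of genotypes, with 1 of 3 called lower than in wild type. The part of these cell types in the Glis2 difference was not tested.

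The transition zone genes showed no called change. Nphp4 encodes nephrocystin-4, a scaffold protein that binds RPGRIP1L. It had 106, 106 and 78.6 normalized counts in double-knockout kidneys, 87.4, 81.3 and 85.8 in Pkd2-knockout kidneys, and 90.4, 129.6 and 119.7 in wild-type kidneys. The Pkd2-knockout mice lay just below the lowest wild-type mouse, and the double-knockout mice spanned both groups. The log2 fold change of Nphp4 in Pkd2-knockout against wild-type kidneys was -0.40 ± 0.19 SE, the lowest among the 8 genes, with an adjusted p of 0.315 (limma). Its interval, 56.4% to 102% of the wild-type level, is wide. With 82 to 117 reads a library, counting error alone is 10.1% (SD), which limits what can be seen for this gene at this depth. The CV was 16.3% between double-knockout mice and 18.0% between wild-type mice. Between Pkd2-knockout mice it was 3.72%, closer together than counting error alone would give, so the gap to the wild-type mice carries little weight.

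Iqcb1 encodes nephrocystin-5, which binds CEP290 and the retinitis pigmentosa GTPase regulator. It had 310.3, 328 and 254 normalized counts in double-knockout kidneys, 269, 259 and 292 in Pkd2-knockout kidneys, and 311, 285 and 283 in wild-type kidneys. The 3 genotypes overlapped. The interval ran from 76.9% to 113% of the wild-type level in the Pkd2 knockout and from 83.2% to 123% in the double knockout. Cep290 encodes a large coiled-coil protein that links the microtubules of the transition zone to the membrane. It had 877, 849 and 746 normalized counts in double-knockout kidneys, 887, 821 and 819.8 in Pkd2-knockout kidneys, and 857, 819 and 689 in wild-type kidneys. Here too the genotypes overlapped, and the interval ran from 91.1% to 126% of the wild-type level in the Pkd2 knockout and from 88.9% to 123% in the double knockout.

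Tmem67 encodes meckelin, a membrane protein of the MKS complex. It had 369, 376 and 399 normalized counts in double-knockout kidneys, 309, 311 and 346 in Pkd2-knockout kidneys, and 393, 343 and 379.9 in wild-type kidneys. All 3 double-knockout mice were above the 3 Pkd2-knockout mice, while the wild-type mice overlapped with both. Double-knockout kidneys stood at 118% of the Pkd2-knockout level (95% interval 101% to 139%), with a log2 fold change of 0.24 ± 0.10 SE, an unadjusted p of 0.0369 and an adjusted p of 0.417 (limma). In Pkd2-knockout against wild-type kidneys the log2 fold change was -0.21 ± 0.10 SE (adjusted p = 0.321, limma), and in double-knockout against wild-type kidneys it was 0.04 ± 0.10 SE (adjusted p = 0.920, limma). Exons of Tmem67 share 3.73% of their length with Rbm12b2 and 1.69% with Gm11842, and those of Cep290 share 7.58% with 4930430F08Rik, all on the other strand.

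None of the 3 inversin compartment genes among the 8 was called with limma, and their log2 fold changes had both signs in the Pkd2 knockout. Invs encodes inversin, the anchor of this compartment. It had 1499, 1278 and 1492 normalized counts in double-knockout kidneys, 1483, 1399 and 1679.5 in Pkd2-knockout kidneys, and 1236, 1253 and 1377 in wild-type kidneys. Every Pkd2-knockout mouse was above every wild-type mouse, by a narrow margin, and the double-knockout mice overlapped with both. Pkd2-knockout kidneys stood at 118% of the wild-type level (95% interval 101% to 137%), with a log2 fold change of 0.24 ± 0.10 SE, an unadjusted p of 0.0372 and an adjusted p of 0.244 (limma). Double-knockout kidneys stood at 110% of the wild-type level (95% interval 94.7% to 128%).

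Nek8 encodes the kinase that is mutated in the jck mouse, which has cystic kidneys. It had 787, 639.7 and 601 normalized counts in double-knockout kidneys, 656, 585 and 879 in Pkd2-knockout kidneys, and 837, 834 and 599 in wild-type kidneys. Nek8 varied more within each genotype than between them, with a CV of 14.5% in double-knockout, 21.7% in Pkd2-knockout and 18.1% in wild-type kidneys, where counting error alone is 3.74% (SD). The highest value of all was in Pkd2-knockout mouse 3, and wild-type mouse 3 was far below the other 2 wild types. Pkd2-knockout mouse 3 also had the highest summed erythroid markers, at 4841 normalized counts, where the other Pkd2-knockout mice had 672 and 231. The double-knockout mice had 70.9 to 305 and the wild-type mice 264 to 816. The part of these erythroid markers in the Nek8 value of Pkd2-knockout mouse 3 was not tested. With all mice, the log2 fold change of Nek8 in Pkd2-knockout against wild-type kidneys was -0.10 ± 0.19 SE (adjusted p = 0.818, limma). Without those 2 libraries it was -0.43 (adjusted p = 0.125, limma), so these mice decide its size, though neither value was called.

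Anks6 encodes an ankyrin-repeat protein that binds and activates NEK8 and is mutated in the cystic cy rat. It had 739.7, 768 and 803 normalized counts in double-knockout kidneys, 678, 691 and 796 in Pkd2-knockout kidneys, and 766, 890.2 and 853 in wild-type kidneys. The Pkd2-knockout and wild-type mice overlapped through Pkd2-knockout mouse 3. The log2 fold change in Pkd2-knockout against wild-type kidneys was -0.21 ± 0.09 SE, with an unadjusted p of 0.0491 and an adjusted p of 0.275 (limma), and in double-knockout against wild-type kidneys it was -0.12 ± 0.09 SE (adjusted p = 0.677, limma). Invs and Anks6, whose products share the compartment, thus had log2 fold changes of opposite sign in the Pkd2 knockout, neither of them called.

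**Figure D3:**
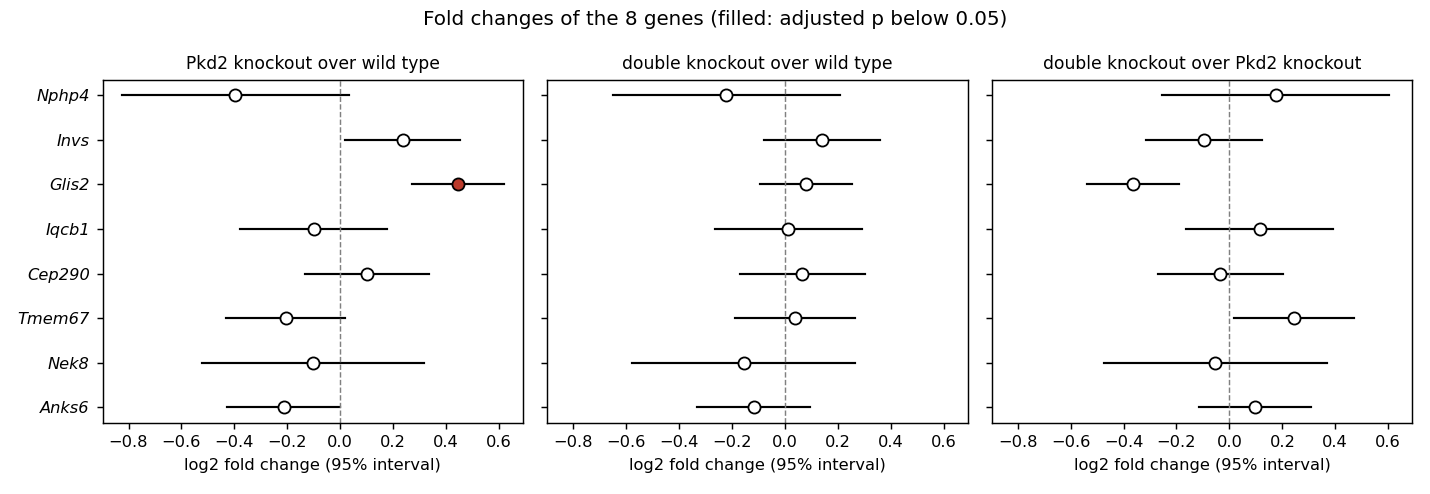
Log2 fold changes of the 8 genes with 95% intervals for Pkd2 knockout over wild type, double knockout over wild type and double knockout over Pkd2 knockout. The filled point is Glis2 at 0.45 in the first panel, and the widest intervals belong to Nphp4 and Nek8.

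Over the 8 genes, the groups did not overlap for 3 genes in Pkd2-knockout against wild-type kidneys, namely Glis2 and Invs, which were higher, and Nphp4, which was lower. The groups did not overlap for 25.2% of all tested genes in that comparison. In double-knockout against wild-type kidneys the groups overlapped for all 8 genes, where 18.3% of all tested genes were apart. In double-knockout against Pkd2-knockout kidneys they were apart for 2 genes, Tmem67, which was higher, and Glis2, which was lower, where 15.2% of all tested genes were apart. The median log2 fold change of the 8 genes was -0.10, 0.03 and 0.03 in the 3 comparisons in this order, beside 0.00, -0.00 and 0.00 over all tested genes. The median size of the log2 fold change, sign aside, was 0.21, 0.10 and 0.11 for the 8 genes, beside 0.16, 0.14 and 0.12 over all tested genes. The comparisons share their control mice and are not independent.

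The 8 genes did not follow one pattern over the 9 mice. With each gene's log2 values centred on its own mean, the root-mean-square difference between a pair of genes was smallest for Tmem67 and Anks6, at 0.122, and next for Iqcb1 and Cep290, at 0.126. It was largest for Nphp4 and Glis2, at 0.388. The gene nearest to Glis2 by the same measure, among 12220 named genes with a mean of at least 50 normalized counts, was Anks3, at 0.0557. Tmem43 followed at 0.0786 and Narf at 0.0901. These genes were picked for their likeness to Glis2, so their values describe the pattern and carry no test of it.

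Anks3 encodes an ankyrin-repeat protein that binds ANKS6 and NEK8, and it belongs to the list of inversin compartment genes. It had 1454, 1381 and 1294 normalized counts in double-knockout kidneys, 1562, 1674 and 1667 in Pkd2-knockout kidneys, and 1229, 1191 and 1365 in wild-type kidneys. Tmem43, which encodes a protein of the inner nuclear membrane, averaged 827 ± 14.8 normalized counts in double-knockout, 1043 ± 77.4 in Pkd2-knockout and 744 ± 35.9 in wild-type kidneys. Narf averaged 2490 ± 86.5, 2835 ± 134 and 2146 ± 97.0 in the same order (SD, n = 3 each). All 3 had their highest values in the Pkd2-knockout mice.

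**Figure D4:**
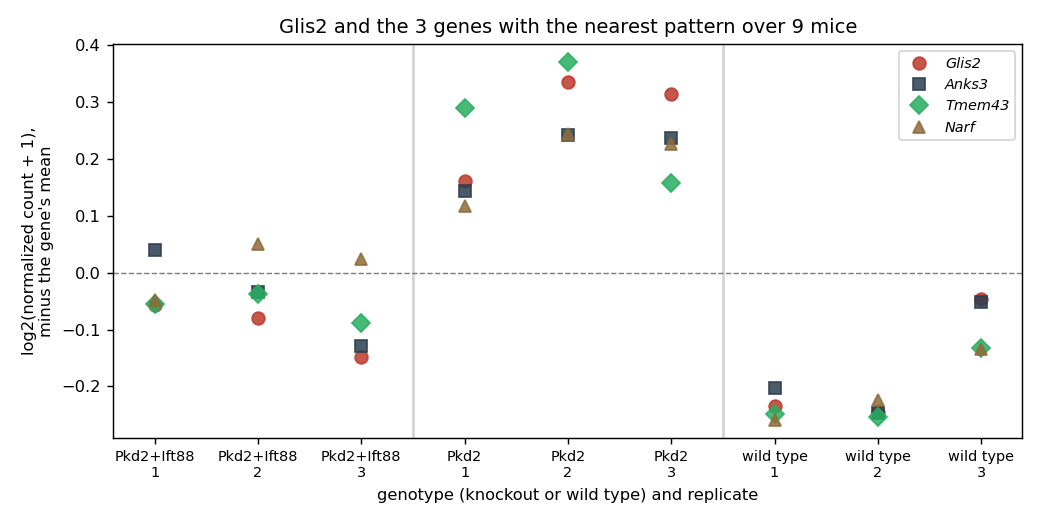
Log2(normalized count + 1) of Glis2, Anks3, Tmem43 and Narf in each of the 9 mice, each gene centred on its own mean, with double-knockout, Pkd2-knockout and wild-type mice from left to right. The 3 Pkd2-knockout mice are highest for all 4 genes, which were selected for likeness to Glis2 over these same mice.

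Glis2 and Anks3 lie on the same chromosome, 16, with 14 annotated genes between them, of which 12 were tested. This neighbourhood was looked at after the values were seen. None of the 12 was called in any of the 3 comparisons with limma. In Pkd2-knockout against wild-type kidneys their log2 fold changes ran from -0.41 to 0.19 with a median of -0.02, and the groups were apart for 1 of them, Nudt16l1, which was lower (-0.27 ± 0.10 SE, adjusted p = 0.190, limma). For 0 of the 12 were the Pkd2-knockout values all above the wild-type ones, as they were for 12.4% of all tested genes. In this comparison 2.40% of all tested genes were called and 25.2% were apart in either direction, so counts as low as these among 12 genes are not a result about this neighbourhood.

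The wider pathway was taken as 35 further genes in 7 lists, all of which were in the table and passed the filter. In Pkd2-knockout against wild-type kidneys 1 of 35 was called higher and 0 lower, beside the 2.40% of all tested genes called. The called gene was Anks3, with a log2 fold change of 0.37 ± 0.08 SE and an adjusted p of 0.0448 (limma), 0.0465 with edgeR and 0.00121 with DESeq2. The log2 fold change of Anks3 ranged from 0.33 to 0.43 over the 23 alternatives, some of which cannot change it. The call was lost under 12 of the 23, with a highest adjusted p of 0.166 (limma), reached without the second Pkd2-knockout mouse. Among the single mice left out, it was also lost without either of the other Pkd2-knockout mice (0.115 and 0.0753), the first or second wild-type mouse (0.144 and 0.157), or the first or second double-knockout mouse (0.0602 and 0.0677). In double-knockout against Pkd2-knockout kidneys Anks3 differed by -0.25 ± 0.08 SE on the log2 scale (adjusted p = 0.269, limma), and in double-knockout against wild-type kidneys by 0.13 ± 0.08 SE (adjusted p = 0.581, limma).

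In double-knockout against wild-type kidneys limma called 0 of the 35 genes, beside 0.229% of all tested genes, edgeR called 0 and DESeq2 called 1. In double-knockout against Pkd2-knockout kidneys limma called 0, beside 0.394%, and edgeR and DESeq2 each called 0. An unadjusted p below 0.05 was reached by 4 of the 35 genes in Pkd2-knockout against wild-type kidneys, where 18.0% of all tested genes reached it, by 2 in double-knockout against wild-type kidneys, where 11.7% did, and by 4 in double-knockout against Pkd2-knockout kidneys, where 10.7% did. The groups were apart for 3 genes higher and 3 lower in Pkd2-knockout against wild-type kidneys, for 4 and 4 in double-knockout against wild-type kidneys, and for 3 and 3 in double-knockout against Pkd2-knockout kidneys. Over all tested genes 25.2%, 18.3% and 15.2% were apart in either direction in these comparisons. The median log2 fold change of the 35 genes was -0.03, -0.04 and -0.00 in these comparisons.

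The MKS module holds the membrane and B9-domain proteins that act with meckelin at the transition zone, and limma called 0 of its 13 genes in any of the 3 comparisons, beside 2.40%, 0.229% and 0.394% of all tested genes. Against wild type, 9 of the 13 had log2 fold changes below 0 in the Pkd2 knockout and 11 of 13 in the double knockout, with medians of -0.05 and -0.11. Over all tested genes 49.2% were below 0 in the first of these comparisons and 50.2% in the other, with medians of 0.00 and -0.00. Tmem237, the most abundant of them, averaged 1931 ± 601 normalized counts in double-knockout, 2212 ± 438 in Pkd2-knockout and 1945 ± 288 in wild-type kidneys (SD, n = 3 each), a wide spread within each genotype. B9d2, named here after its values were seen, had 272, 264 and 273 normalized counts in double-knockout kidneys, 209.5, 203 and 245 in Pkd2-knockout kidneys, and 264, 341 and 357 in wild-type kidneys. All 3 Pkd2-knockout mice were below the other 6. The log2 fold change of B9d2 in Pkd2-knockout against wild-type kidneys was -0.54 ± 0.14 SE (adjusted p = 0.0838, limma), the lowest of the 35 genes, and it was not called.

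Neither relative of Glis2 was called with limma. Glis3, a factor linked to cystic kidneys and neonatal diabetes in humans, averaged 5081 ± 500 normalized counts in double-knockout, 4535 ± 93.0 in Pkd2-knockout and 4789 ± 777 in wild-type kidneys (SD, n = 3 each). Its log2 fold change in Pkd2-knockout against wild-type kidneys was -0.07 ± 0.12 SE (adjusted p = 0.820, limma). Glis1, named after its values were seen, had 758, 936 and 794 normalized counts in double-knockout kidneys, 927, 799 and 907 in Pkd2-knockout kidneys, and 657, 581 and 668 in wild-type kidneys. All 6 knockout mice were above the 3 wild-type mice. The log2 fold change of Glis1 was 0.46 ± 0.11 SE in Pkd2-knockout against wild-type kidneys (adjusted p = 0.0628, limma) and 0.38 ± 0.11 SE in double-knockout against wild-type kidneys (adjusted p = 0.231, limma), so neither was called. In double-knockout against Pkd2-knockout kidneys it was -0.08 ± 0.11 SE (adjusted p = 0.873, limma), beside -0.37 for Glis2.

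Among the remaining lists, 0 genes were called. Cep164, which builds the distal appendages of the basal body, averaged 1254 ± 122 normalized counts in double-knockout, 1245 ± 141 in Pkd2-knockout and 1306 ± 83.1 in wild-type kidneys. Rpgr, the retinitis pigmentosa GTPase regulator, averaged 385 ± 26.8, 375 ± 23.9 and 349 ± 21.4 in the same order (SD, n = 3 each). Ift172, an intraflagellar transport gene like Ift88, had 1778, 1878 and 1765 normalized counts in double-knockout kidneys, 1649.5, 1592 and 1561 in Pkd2-knockout kidneys, and 1680.3, 1656 and 1706 in wild-type kidneys. The 3 genotypes of Ift172 did not overlap, with the double knockout highest and the Pkd2 knockout lowest. The steps were small: the log2 fold change was 0.17 ± 0.06 SE in double-knockout against Pkd2-knockout kidneys (adjusted p = 0.314, limma) and 0.10 ± 0.06 SE in double-knockout against wild-type kidneys (adjusted p = 0.554, limma). Sdccag8, a centrosomal nephronophthisis gene named after its values were seen, had the lowest log2 fold change of the 35 genes in double-knockout against wild-type kidneys. It had 344, 299 and 354 normalized counts in double-knockout kidneys, 388, 389.7 and 436 in Pkd2-knockout kidneys, and 480.1, 518 and 425 in wild-type kidneys. Its log2 fold change in double-knockout against wild-type kidneys was -0.51 ± 0.11 SE (adjusted p = 0.142, limma).

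**Figure D5:**
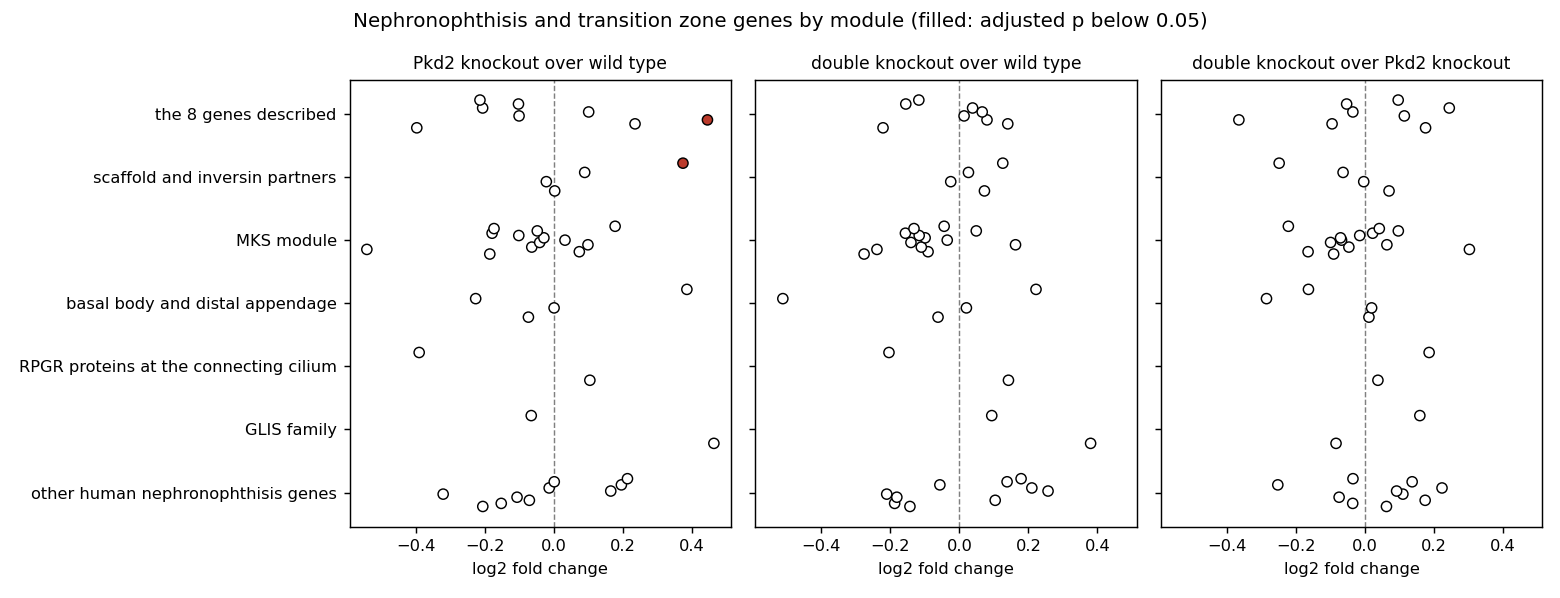
Log2 fold changes of the 8 genes and of the 35 further genes (points), grouped by list with the scaffold and inversin lists joined, for Pkd2 knockout over wild type, double knockout over wild type and double knockout over Pkd2 knockout. The 2 filled points, both in the first panel, are Glis2 at 0.45 and Anks3 at 0.37.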

How the data were processed

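Per the submitters' processing notes, the authors aligned reads with STAR 2.5.0, counted them per gene with HTSeq 0.6.1 and used DESeq2. The deposited table holds a signal value for each gene and library, which is a gene count divided by a size factor. Which genome build, annotation and strand setting they used is not given in the sources used here. The 25 gene names that a spreadsheet had turned into dates were kept as rows and named nowhere. A single read was worth 0.906 to 1.13 of these units, and after division by it 100% of values in all 9 libraries lay within 0.05 of a whole number.

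Genes with a mean of at least 10 were tested with limma 3.58.1 (R 4.3.3) on log2(value + 1) with an intensity trend, 1 mean per genotype and all 9 libraries, two-sided, with Benjamini-Hochberg adjustment over all 15740 genes tested. A fold change on this scale understates the change of low genes. Percentages of a level are ratios of the mean normalized counts of the groups compared. Their 95% intervals are 2 raised to the limits of the log2 differences, so the 2 come from different estimates. edgeR 4.0.16 and DESeq2 1.42.0 were run on the recovered whole reads. The procedure was checked on simulated data.

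The 8 genes, the 35 pathway genes and the marker lists were chosen with earlier results of these data known. Named genes are the 8, each called pathway gene, the most abundant uncalled gene of each list, and the 3 genes nearest to a called member; 2 genes named by this rule are not reported here. Further genes are named where a sequence of theirs is printed or where the text says they were picked after their values were seen. Alternatives covered pseudocounts, filters, scalings, weights, a replicate term, left-out libraries and the other tools. Each library carries its own mouse name. Exon lengths, overlaps and neighbours came from GENCODE M21 and RefSeq tables, used without coordinates, since the table's build is unknown. Promoter sequences are RefSeq's, on GRCm38.p6. Intervals and the counting errors given per gene do not cover amplification error.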

Additional observations from a re-analysis of the deposited data

How the results depend on the processing

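Over 24 fold changes of the 8 genes and 23 alternatives, 529 of 552 values kept their sign and their side of the threshold. Alternatives that change only the filter, the trend, the replicate term or a genotype outside the comparison leave the fold change as it was. In those the sign was fixed in advance, and only the adjusted p could move. The Glis2 call in Pkd2-knockout against wild-type kidneys was lost in 5, namely without the intensity trend (adjusted p = 0.0540, limma), with the replicate term and without each of 3 single mice, and its log2 fold change stayed between 0.41 and 0.51 in all 23. With array weights the same comparison also called Invs (adjusted p = 0.0451, limma), and array weights (0.0377) and DESeq2 (0.00135) called Glis2 lower in double-knockout than in Pkd2-knockout kidneys. Deviations from the group means correlated between -0.18 and 0.24 (median 0.02) for mice of different genotypes with the same replicate number. For mice with different numbers the correlations ran from -0.25 to 0.20 (median -0.02). With 3 mice a genotype, these correlations cannot settle whether the replicate numbers pair the mice. With the replicate number as a block, the adjusted p of Glis2 was 0.0543 (limma), 0 of the 8 and 0 of the 35 genes were called, and over all genes 217, 20 and 15 were called for Pkd2 knockout over wild type, double knockout over wild type and double knockout over Pkd2 knockout, where 377, 36 and 62 were called without it.

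In that order of comparisons, array weights gave 3222, 295 and 614 calls over all genes and DESeq2 1172, 392 and 472. Without wild-type mouse 3 and Pkd2-knockout mouse 3 together, the second comparison gave 111 calls and the third gave 308. In the third, quantile normalization gave 31 and a fit on only the 2 groups 26. Leaving out 1 mouse at a time gave 70 to 436, 18 to 58 and 8 to 154 calls over all genes, and 0 to 1 of the 8 and 0 to 1 of the 35 genes in the first comparison. In the first comparison the calls among the 8 genes were 0 without the trend and 2 with array weights, and in the third 1 with array weights and 1 with DESeq2. Among the 35 genes the first comparison gave 0 calls without a filter, with TMM scaling, without the trend and with only the 2 groups, 8 with array weights, 3 with DESeq2 and 2 without the 2 mice numbered 3, and the second gave 1 with array weights and 1 with DESeq2. The cause of these differences was not tested.

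In 15 cases an uncalled log2 fold change turned its sign, with a lowest adjusted p of 0.704 (limma). Leaving out 1 mouse at a time gave -0.061 to 0.123 for Iqcb1, -0.027 to 0.137 for Cep290 and -0.019 to 0.079 for Tmem67 in double-knockout against wild-type kidneys. It gave -0.082 to 0.035 for Cep290 and -0.179 to 0.115 for Nek8 in double-knockout against Pkd2-knockout kidneys, and -0.270 to 0.023 for Nek8 in Pkd2-knockout against wild-type kidneys. Without the 2 mice numbered 3 together, double-knockout against wild-type values were -0.011 for Iqcb1 and -0.027 for Cep290, and Nek8 was 0.115 in double-knockout against Pkd2-knockout kidneys, where array weights gave 0.084. All 9 libraries gave whole reads, so a limma fit on those libraries only is the fit reported and was not run again. With 3 mice a genotype, the intervals of Nphp4 and Nek8 leave room for changes larger than that of Glis2.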
